A study of Mus musculus with 6 samples.

Results

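A set of 10 genes of the tumor necrosis factor (TNF) and NF-kB pathway was described in adipocytes with and without PU.1, a transcription factor best known from macrophages and B cells. They were taken by name, out of the 35122 genes in the deposited count table: the ligand Tnf, its receptors Tnfrsf1a and Tnfrsf1b, the NF-kB subunits Nfkb1, Nfkb2, Rela and Relb, the inhibitors Nfkbia and Tnfaip3, and the kinase Ikbkb. All 10 had enough counts to be tested. RNA was sequenced from the floating adipocyte layer of collagenase-digested epididymal fat of chow-fed male C57BL/6 mice, 3 controls (PU.1 fl/fl) and 3 aPU.1KO mice (AdipoqCre_PU.1 fl/fl), with 1 library from each mouse. In all 6 mice an exon of Spi1, the gene of PU.1, carries loxP sites, and only aPU.1KO mice also carry the Cre recombinase that removes it, driven by the adiponectin promoter which is active mainly in fat cells. The age label reads 10 to 11 months for both groups, whereas the study's text places the mice at more than 1 year.

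TNF is a cytokine made mainly by macrophages, and in fat it is known for reducing the response to insulin. It binds the receptor TNFR1 (Tnfrsf1a), found on most cells, and TNFR2 (Tnfrsf1b), found mostly on immune and endothelial cells. The receptor complex activates the IKK kinases, which mark the inhibitor IkB-alpha (Nfkbia) for destruction and so release NF-kB dimers into the nucleus. NF-kB then switches on inflammatory genes together with its own brakes, Nfkbia and Tnfaip3 (A20), whose RNA is for that reason often read as a sign of recent pathway activity.

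Total counts lay between 20550252 and 24310144 in 5 libraries and reached 69283842 in control mouse 1. Levels are given as CPM, counts per 1000000 counts of the library, after TMM scaling. Spi1 was measured at 24.3, 6.35 and 26.7 CPM in control mice 1, 2 and 3 and at 3.20, 1.22 and 4.17 CPM in aPU.1KO mice 1, 2 and 3. Control mouse 2 thus stood closer to the aPU.1KO mice than to the other controls. Counts were made per gene, and reads from the Spi1 exons that stay in place are included. The 12 adipocyte markers, among them Adipoq, the adiponectin gene, summed to 39290 to 45040 CPM in controls and 50350 to 56440 CPM in aPU.1KO mice. The unadjusted p was under 0.05 for 8 higher markers and 1 lower marker, the leptin gene Lep, beside 11.9% and 13.7% of all genes. Markers of other cells were present as well. The 14 macrophage markers summed to 1601, 503 and 1548 CPM in the control mice and to 351, 270 and 334 CPM in the aPU.1KO mice. None of the 14 was at 0 in any mouse, 11 had their 3 aPU.1KO values below all control values, beside 15.5% of all genes, and 12 were lower at an unadjusted p under 0.05 (11 or 12 with any mouse left out), beside 13.7% of all genes. The 8 fibroblast and progenitor markers also summed to less, 1325 to 1737 CPM in controls and 721 to 1041 CPM in aPU.1KO mice. The 8 endothelial markers overlapped in their sums, 592 to 869 CPM against 357 to 760 CPM, with 2 lower at an unadjusted p under 0.05. The 8 hepatocyte markers summed to 38.1 to 62.8 CPM against 17.1 to 23.3 CPM, and all 8 were lower without overlap, beside 15.5% of all genes. At an adjusted p under 0.05 in edgeR, 3 of these 8 (Apoa1, Ttr and Fgg) and 1 of the 14 macrophage markers (Mrc1) were lower, beside 0.237% of all genes differing. None of the adipocyte, fibroblast and progenitor, or endothelial markers passed this threshold. In RNA from a mixed sample, fewer cells of a type and less RNA per cell cannot be told apart.

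Per length of exon, the receptor Tnfrsf1a and the inhibitor Nfkbia stood above the rest of the pathway. In the controls Tnfrsf1a had 57.4 ± 0.855 CPM per kb (SD, n = 3) and Nfkbia 48.0 ± 3.69. Rela, the main activating subunit, followed at 19.3 ± 1.30 CPM per kb. Tnfrsf1b, Nfkb2, Tnfaip3, Relb, Tnf and Nfkb1 came next, with control means from 10.8 down to 3.91 CPM per kb, and each neighbor in that order overlapped the next in the values of single mice. Ikbkb was lowest at 2.15 ± 0.0904 CPM per kb, with the caution that its annotated exons sum to 19078 bases over all isoforms, which lowers a value per length. In the aPU.1KO mice Tnf took the last place at 1.36 ± 0.377 CPM per kb, and Tnfrsf1b had 3.13 ± 0.952.

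**Figure D1:**
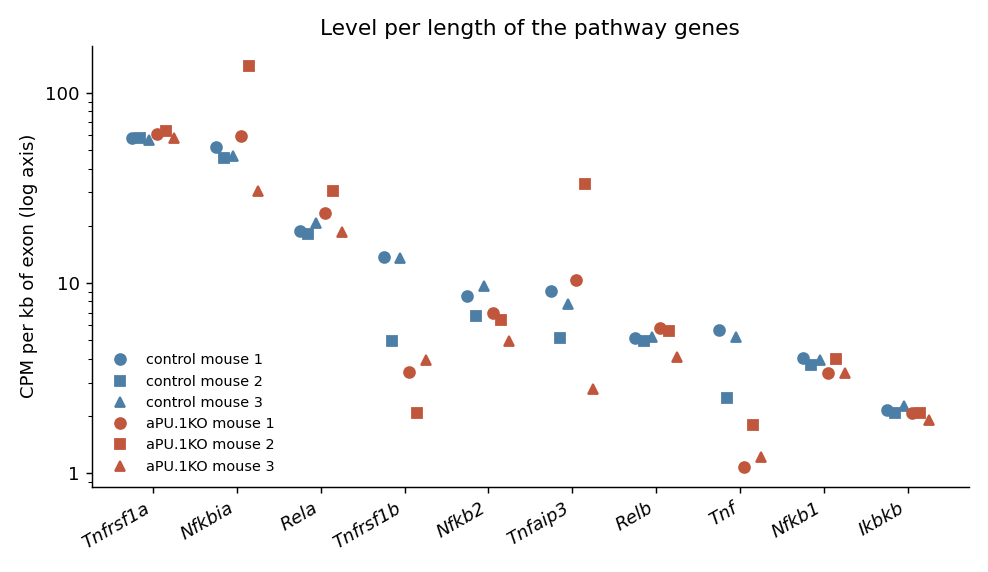
CPM per kb of exon (log axis) of the 10 pathway genes in each of the 6 mice, ordered by the control mean. Tnfrsf1a and Nfkbia lead in the controls at means of 57.4 and 48.0, and the aPU.1KO points of Nfkbia and Tnfaip3 are spread far more widely than their control points.

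The question put to each gene was whether its level differed between the genotypes by more than it differed between mice. At an adjusted p under 0.05 in edgeR's quasi-likelihood test, 0 of the 10 genes differed, beside 33 of 13925 genes tested, or 0.237%. At an unadjusted p under 0.05, 3 of the 10 were lower in aPU.1KO mice (Tnf, Tnfrsf1b and Nfkb2), where 13.7% of all tested genes were lower, and 0 of the 10 were higher, where 11.9% of all genes were higher. In 2 of the 10, Tnf and Tnfrsf1b, the groups did not overlap and the aPU.1KO values were the lower, beside 15.5% of all genes. In 1, Tnfrsf1a, they did not overlap and were the higher, beside 16.7% of all genes. DESeq2, the tool named in the study's methods, called Tnf and Tnfrsf1b lower and 0 higher at an adjusted p under 0.05, beside 7.48% of 16684 genes lower and 3.51% higher. The median log2 fold change (aPU.1KO over control) was -0.04 over the 10 genes and 0.01 over all genes tested.

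**Figure D2:**
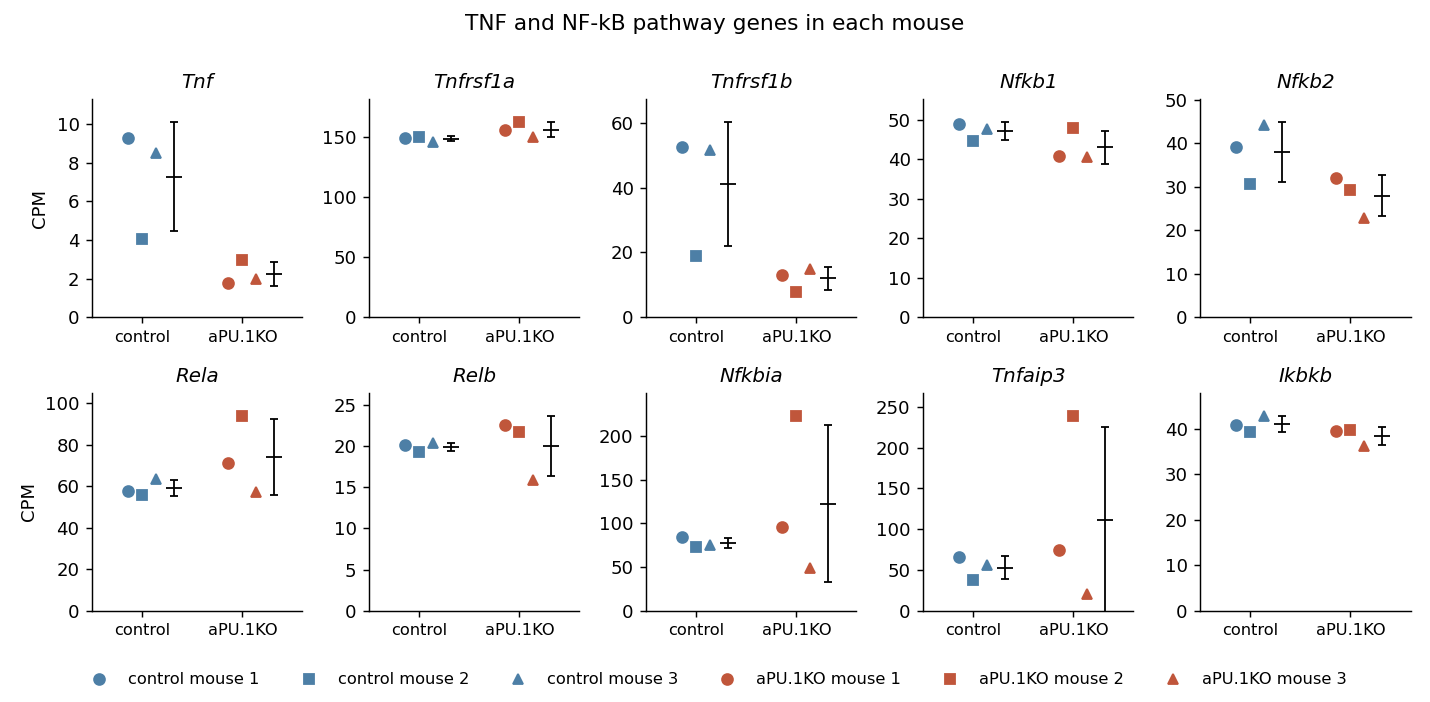
CPM of each of the 10 genes in the 3 control and 3 aPU.1KO mice, each panel from 0, with the group mean and SD beside the points. Tnf and Tnfrsf1b separate the groups downward, while Nfkbia and Tnfaip3 reach 223 and 239 CPM in aPU.1KO mouse 2 and fall below every control in aPU.1KO mouse 3 (the lower SD bar of Tnfaip3 runs past 0 and is not drawn below it).

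The ligand Tnf (ENSMUSG00000024401; GRCm38 chromosome 17, 35199381 to 35202007, minus strand) was measured at 9.25, 4.07 and 8.53 CPM in control mice 1, 2 and 3 and at 1.78, 2.94 and 1.99 CPM in aPU.1KO mice 1, 2 and 3. The groups did not overlap, although control mouse 2 was nearer to aPU.1KO mouse 2 than to the other controls. The log2 fold change was -1.71 (SE 0.36, 95% interval -2.57 to -0.84), with an unadjusted p of 0.00240 and an adjusted p of 0.0775 in edgeR. DESeq2 gave an adjusted p of 0.000361. These values rest on 93 to 672 counts in a control and 35 to 65 counts in an aPU.1KO library. Without control mouse 2 the edgeR adjusted p was 0.00990, and without control mouse 1 it was 0.313.

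A PU-box core, the letters GAGGAA on either strand, was looked for because PU.1 is known to bind such purine-rich sites. It was found in 28.3% of 32817 RefSeq promoter windows reaching from 250 bases before to 50 bases after a start site. The Tnf window held 1 match, on the strand opposite to the gene, 117 bases before the start, and the Tnfrsf1b window held 1, starting 208 bases before. Windows of Tnfrsf1a, Rela, Nfkb2, Nfkbia and Tnfaip3 held none, and no window was at hand for Nfkb1, Relb and Ikbkb. With the core in 28.3% of all windows a match is common, and binding of PU.1 to these sites was not tested. The stretches around both matches are shown because only these windows held one (RefSeq, GRCm38.p6, read along the gene, the match in capitals).
Tnf, chr17:35202099-35202144, minus strand: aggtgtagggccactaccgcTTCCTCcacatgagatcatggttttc
Tnfrsf1b, chr4:145247053-145247098, minus strand: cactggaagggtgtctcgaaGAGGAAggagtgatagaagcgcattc

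The receptors behaved differently from each other. Tnfrsf1a (ENSMUSG00000030341; chromosome 6, 125349362 to 125362484, plus strand) had 149.7, 150.5 and 146.3 CPM in the controls and 156.5, 162.5 and 150.6 CPM in the aPU.1KO mice. All 3 aPU.1KO values were above the controls, mouse 3 by only a small margin, and the interval of the log2 fold change ran from -0.09 to 0.24 around 0.07 (adjusted p = 0.543). Tnfrsf1b (ENSMUSG00000028599; chromosome 4, 145213463 to 145246870, minus strand) had 52.5, 18.9 and 51.7 CPM in the controls and 13.0, 7.91 and 15.0 CPM in the aPU.1KO mice. As for Tnf, the groups did not overlap and control mouse 2 was the lowest control. Its log2 fold change was -1.79 (SE 0.42, 95% interval -2.79 to -0.78), with an unadjusted p of 0.00423 and adjusted p values of 0.0808 in edgeR and 0.000345 in DESeq2. The edgeR adjusted p was 0.00879 without control mouse 2 and 0.317 without control mouse 1.

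Because both receptors were counted in the same library, their ratio does not depend on scaling between libraries. The ratio of Tnfrsf1b to Tnfrsf1a counts was 0.351, 0.126 and 0.353 in the control mice and 0.0830, 0.0488 and 0.0995 in the aPU.1KO mice. No aPU.1KO value reached the lowest control. The difference in mean log2 ratio was -1.76 (control SD 0.857, aPU.1KO SD 0.534, n = 3 each), with a two-sided exact permutation p of 0.1, the smallest that 3 mice against 3 can give. TNFR1 RNA was thus the more abundant in all 6 mice, and per kb of exon the ratio reached no more than 0.240.

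Tnf, Tnfrsf1b and the summed macrophage markers were all highest in control mice 1 and 3, in between in control mouse 2 and lowest in the aPU.1KO mice. Among the aPU.1KO mice the order was not shared, since Tnf was highest in mouse 2, where the marker sum was lowest, and Tnfrsf1b was highest in mouse 3. Divided by the marker sum, Tnf came to 0.578, 0.809 and 0.551 CPM per 100 macrophage marker CPM in the controls and to 0.506, 1.09 and 0.596 in the aPU.1KO mice. For Tnfrsf1b the values were 3.28, 3.76 and 3.34 in the controls and 3.69, 2.93 and 4.48 in the aPU.1KO mice. On this scale the groups overlapped for both genes, with log2 differences of 0.12 for Tnf and 0.08 for Tnfrsf1b and a two-sided exact permutation p of 0.8 for each. The sum does not stand for every marker, since 2 of the 14 had a log2 fold change above 0. The median over the 14 was -2.09, lower than Tnf at -1.71 and Tnfrsf1b at -1.79. Division by single markers was not made. The division by the sum was chosen after the data were seen, and it does not tell which cells the transcripts came from. Among 10936 genes with an average log2 CPM of at least 2, those most like Tnf over the 6 libraries were P3h3, Slc29a1 and Emilin1, with Pearson r of 0.998, 0.998 and 0.997 on the log2 scale. The 6 libraries form 2 groups that do not overlap in Tnf, so the likeness holds the group difference too.

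**Figure D3:**
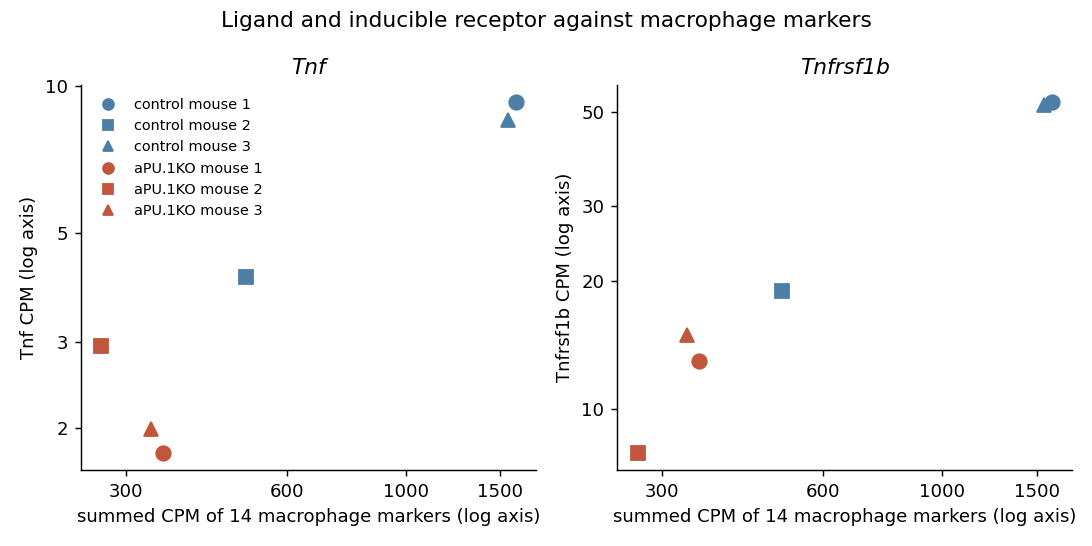
CPM of Tnf (left) and Tnfrsf1b (right) in each mouse against the summed CPM of 14 macrophage markers, on log axes. Control mouse 2, at a marker sum of 503, lies between the aPU.1KO mice at 270 to 351 and the other controls at 1548 and 1601 in both panels.

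The subunits showed smaller differences. Nfkb2, whose product p100 is cut to p52 in the alternative NF-kB pathway, had 39.2, 30.7 and 44.1 CPM in the controls and 31.9, 29.2 and 22.8 CPM in the aPU.1KO mice. The groups overlapped, since aPU.1KO mouse 1 was above control mouse 2. The log2 fold change was -0.44 (SE 0.17), with an unadjusted p of 0.0389 and an adjusted p of 0.172 in edgeR. Exons of Nfkb2 (ENSMUSG00000025225; chromosome 19, 46304320 to 46312385, plus strand) overlap those of Psd on the opposite strand over 299 bases. Whether the counting used strand is not given in the sources used here.

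Nfkb1, which encodes p105 and its product p50, had 49.0, 44.6 and 47.8 CPM in the controls and 40.8, 47.8 and 40.5 CPM in the aPU.1KO mice. Its groups overlapped, with a log2 fold change of -0.13 (95% interval -0.35 to 0.09). Relb, the partner of p52, had 20.1, 19.3 and 20.3 CPM against 22.5, 21.7 and 15.9 CPM, so that aPU.1KO mouse 3 lay below the controls and the other aPU.1KO mice above. Rela (p65) had 58.0, 55.9 and 63.6 CPM in the controls and 71.5, 93.9 and 57.1 CPM in the aPU.1KO mice, where mouse 2 was highest and mouse 3 lay among the controls. The intervals of the log2 fold change were -0.33 to 0.35 for Relb and -0.09 to 0.74 for Rela. Ikbkb, the IKK subunit of the classical pathway, had 39.4 to 42.8 CPM in the controls and 36.2 to 39.8 CPM in the aPU.1KO mice, and its interval of -0.27 to 0.09 was among the narrowest of the 10.

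**Figure D4:**
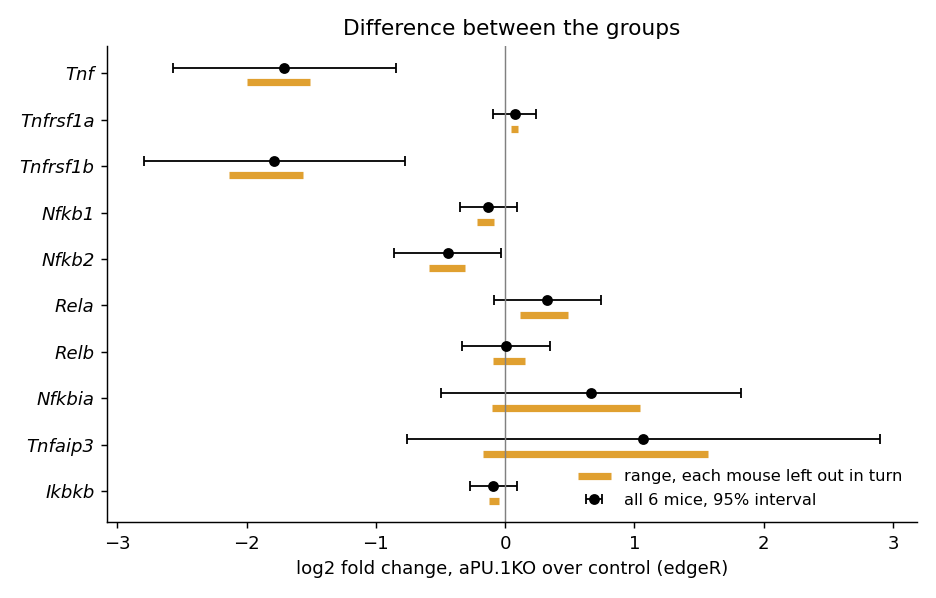
Log2 fold change of the 10 genes, aPU.1KO over control, with the 95% interval from edgeR (black) and the range obtained when each mouse was left out in turn (orange). Tnf and Tnfrsf1b stay below 0 in every case, from -2.00 to -1.51 and from -2.13 to -1.57, while the ranges of Relb, Nfkbia and Tnfaip3 cross 0.

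The feedback inhibitors Nfkbia and Tnfaip3 were marked by the spread among the aPU.1KO mice. Nfkbia had 84.0, 73.0 and 74.8 CPM in control mice 1, 2 and 3 and 95.6, 222.8 and 49.0 CPM in aPU.1KO mice 1, 2 and 3. The highest aPU.1KO mouse exceeded the lowest 4.54-fold, against 1.15-fold in the controls. Tnfaip3, which removes ubiquitin chains from the receptor complex, had 65.5, 37.3 and 55.8 CPM in the controls and 74.6, 238.7 and 20.04 CPM in the aPU.1KO mice. There the highest aPU.1KO mouse exceeded the lowest 11.9-fold, against 1.75-fold in the controls. In both genes aPU.1KO mice 2 and 1 were above every control and mouse 3 was below every control. With such a spread the log2 fold changes of 0.66 (SE 0.49) for Nfkbia and 1.07 (SE 0.77) for Tnfaip3 had adjusted p values of 0.428 and 0.419. Without aPU.1KO mouse 2 they became -0.10 and -0.17, and without aPU.1KO mouse 3 they became 1.05 and 1.57, at unadjusted p values of 0.0228 and 0.0215.

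NF-kB is known to act on both inhibitor genes through sites near their start. The NF-kB consensus, searched on both strands, was found in 4.5% of the 32817 promoter windows. The window of Nfkbia (ENSMUSG00000021025; chromosome 12, 55489410 to 55492647, minus strand) held 1 match and a window of Tnfaip3 (ENSMUSG00000019850; chromosome 10, 19000910 to 19015657, minus strand) held 2. All 3 windows of Nfkb2 held at least 1, and those of Tnf, Tnfrsf1a, Tnfrsf1b and Rela held none in these 300 bases. The stretches of Nfkbia and Tnfaip3 are shown because these genes had the same order of the 6 mice, and that of Nfkb2, whose order differed, for its matches (RefSeq, GRCm38.p6, read along the gene, matches in capitals). The Nfkb2 stretch lies in an exon of a longer annotated transcript and holds an overlapping pair of matches.
Nfkbia, chr12:55492648-55492696, minus strand: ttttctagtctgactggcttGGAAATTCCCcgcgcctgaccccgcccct
Tnfaip3, chr10:19015411-19015547, minus strand: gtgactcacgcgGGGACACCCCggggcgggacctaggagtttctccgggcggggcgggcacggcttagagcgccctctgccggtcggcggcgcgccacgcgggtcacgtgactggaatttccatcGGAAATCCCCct
Nfkb2, chr19:46304688-46304717, plus strand: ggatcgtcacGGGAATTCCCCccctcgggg

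The order seen for Nfkbia and Tnfaip3 was then counted over all genes: aPU.1KO mouse 2 above mouse 1, both above every control, and mouse 3 below every control. It held for 2 of the 10 pathway genes and for 271 of 13925 genes tested, or 1.95%. Of 34 tested genes widely described as NF-kB targets, 8 had it, namely Ccl2, Cxcl1, Cxcl10, Sod2, Ier3, Irf1, Ptx3 and Myc. Among 27 genes of the receptor complex and of IKK activation it was found in 1 (Ripk1), and in 0 of 5 ligands and 0 of 11 receptors of the wider TNF family. Among 13 other subunits and inhibitors it was found in 1, Nfkbiz, an atypical IkB protein that co-activates some NF-kB targets. The rule was written after the order had been seen in these genes, and the counts are a description.

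Values in this order could be large. Cxcl10, a chemokine that draws T cells, had 8.76, 8.01 and 7.69 CPM in the controls and 33.2, 139.2 and 2.65 CPM in the aPU.1KO mice. Nfkbiz, named after its values were seen, had 102.5, 114.9 and 87.5 CPM in the controls and 233.6, 472.8 and 70.3 CPM in the aPU.1KO mice. In both genes the controls lay close together and the aPU.1KO mice lay on either side of them. Ptx3, which encodes a soluble pattern recognition protein, ran from 9.64 to 12.4 CPM in the controls and had 86.4, 141.9 and 1.94 CPM in the aPU.1KO mice.

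The same order was common among immediate early genes, which cells are known to induce within minutes of stress such as tissue digestion. It held for 8 of 15 (Fos, Fosb, Jun, Junb, Egr2, Atf3, Zfp36 and Nr4a1), beside 1.95% of all genes. The 15 genes summed to 4472, 5069 and 4099 CPM in the controls and to 6116, 9270 and 3283 CPM in the aPU.1KO mice. At an unadjusted p under 0.05, 0 of the 15 differed, beside 13.7% of all genes lower and 11.9% higher. Without aPU.1KO mouse 3 there were 10 higher and 0 lower, where 13.3% of all genes were higher, and without aPU.1KO mouse 2 there were 2 lower and 0 higher, where 14.9% of all genes were lower. The macrophage sum was lowest in aPU.1KO mouse 2, the mouse with the most Nfkbia, Tnfaip3 and immediate early RNA. The part of the immediate early response in the values of Nfkbia and Tnfaip3 was not tested.

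**Figure D5:**
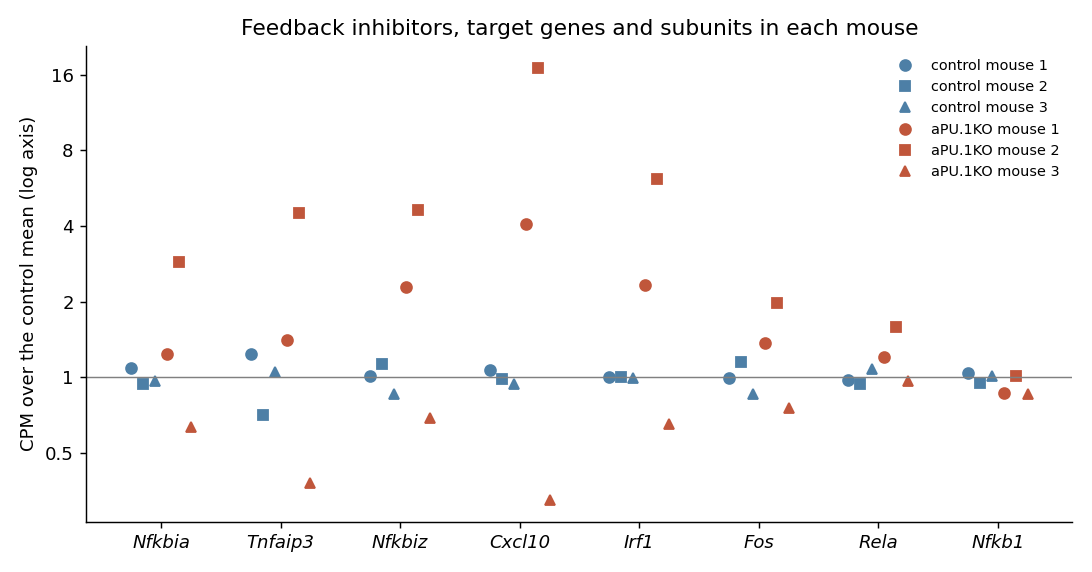
CPM over the control mean (log axis) in each mouse for the inhibitors Nfkbia, Tnfaip3 and Nfkbiz, the target genes Cxcl10 and Irf1, the immediate early gene Fos, and the subunits Rela and Nfkb1. From Nfkbia to Fos, aPU.1KO mouse 2 is highest, mouse 1 next and mouse 3 lowest, with the controls between mice 1 and 3, and Nfkb1 shows no such spread.

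The rest of the pathway was described through lists. Of 27 genes of the receptor complex and of IKK activation, 3 had an unadjusted p under 0.05 and a lower level and 1 a higher one, beside 13.7% and 11.9% of all genes, and the median log2 fold change was -0.08. DESeq2 called 2 lower and 0 higher, beside 7.48% and 3.51% of all genes. Adam17, the protease that sheds TNF from the cell surface, had 51.2, 33.4 and 50.5 CPM in the controls and 33.2, 31.0 and 28.5 CPM in the aPU.1KO mice. Its groups did not overlap, by a narrow margin at control mouse 2, and the log2 fold change was -0.55 (SE 0.17, adjusted p = 0.117 in edgeR and 0.0442 in DESeq2). Traf3, an adaptor that restrains the alternative pathway, was at -0.40 (SE 0.15), and Birc2, a ubiquitin ligase of the complex, was at 0.31 (SE 0.12), neither with an adjusted p under 0.05. Ikbke, an IKK-related kinase, was at -0.62 (SE 0.29) with overlapping groups. The largest change in the list was that of Traf1, a low-count gene named after its values were seen. It was at -1.74 (SE 0.43, adjusted p = 0.0856 in edgeR and 0.00580 in DESeq2). Its groups did not overlap, on 40 to 183 counts in a control and 6 to 17 in an aPU.1KO library. The 3 lower genes became 1 without control mouse 1 or control mouse 3, where 8.1% and 10.3% of all genes were lower, and 5 without control mouse 2 or aPU.1KO mouse 2, where 15.1% and 14.9% were lower. The 1 higher gene became 3 without aPU.1KO mouse 3, where 13.3% of all genes were higher, and 0 without any other mouse, where 4.15% to 11.0% were higher.

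Of the 13 other subunits and inhibitors, the unadjusted p was under 0.05 for 5 lower genes and 1 higher gene, beside 13.7% and 11.9% of all genes, none had an adjusted p under 0.05 in edgeR, and the 5 were called lower by DESeq2, beside 7.48% of all genes. The median log2 fold change was -0.14. Tnip3, a partner of A20, had 10.6, 1.97 and 10.0 CPM in the controls and 1.42, 0.362 and 0.900 CPM in the aPU.1KO mice. Nfkbid, a nuclear IkB protein, had 10.2, 3.72 and 10.9 CPM in the controls and 1.93, 1.63 and 1.37 CPM in the aPU.1KO mice. Control mouse 2 was again the low control in both genes, and the log2 fold changes were -3.09 (SE 0.74) for Tnip3 and -2.34 (SE 0.43) for Nfkbid. Tnfaip8l2 and Nfkbie, which encode a negative regulator of immune signaling and the inhibitor IkB-epsilon, were at -1.97 (SE 0.52) and -1.50 (SE 0.38). The count of 5 lower genes was 5 to 7 with any mouse left out, where 8.1% to 15.1% of all genes were lower. The 1 higher gene became 0 without control mouse 1, control mouse 2 or aPU.1KO mouse 1 and 2 without aPU.1KO mouse 2 or aPU.1KO mouse 3, where the higher share of all genes lay between 4.15% and 13.3%.

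Most other ligands of the TNF family were scarce in this RNA. Of 14 other ligands, 5 had enough counts to be tested and Cd70 was at 0 in all 6 libraries. Of the 5, the unadjusted p was under 0.05 for 4, all lower, beside 13.7% of all genes, with a median log2 fold change of -1.14. DESeq2 called 3 of them lower, beside 7.48% of all genes. Tnfsf13, the ligand APRIL that supports plasma cells, had 3.68, 1.80 and 3.57 CPM in the controls and 0.864, 0.633 and 0.426 CPM in the aPU.1KO mice (log2 fold change -2.24, SE 0.40, adjusted p = 0.07245 in edgeR and 9.06e-05 in DESeq2). Tnfsf12, which encodes TWEAK, was at -1.07 (SE 0.29). Tnfsf10, which encodes TRAIL, was at -0.36 (SE 0.30), and its groups overlapped.

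Of 20 other receptors, 11 were tested, the unadjusted p was under 0.05 for 4, all lower, beside 13.7% of all genes, and the median was -0.40. DESeq2 called 4 of the 11 lower, beside 7.48% of all genes. Tnfrsf11a, the receptor RANK that drives osteoclast formation, had 15.0, 6.30 and 13.6 CPM in the controls and 2.59, 3.03 and 3.51 CPM in the aPU.1KO mice, with no overlap and a log2 fold change of -1.94 (SE 0.34, adjusted p = 0.07245 in edgeR and 7.89e-06 in DESeq2). Tnfrsf21, a death receptor, had 35.8, 32.7 and 36.6 CPM in the controls and 19.2, 12.3 and 24.6 CPM in the aPU.1KO mice. For this gene control mouse 2 lay with the other controls, and the log2 fold change was -0.91 (SE 0.23, adjusted p = 0.0894 in edgeR and 0.00623 in DESeq2). Eda2r and Tnfrsf12a, the receptors of EDA-A2 and TWEAK, were at -0.56 (SE 0.41) and -0.40 (SE 0.23), with overlapping groups.

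Genes widely described as NF-kB targets were described last. Of 34 tested, the unadjusted p was under 0.05 for 11 lower and 3 higher genes, beside 13.7% and 11.9% of all genes, and the adjusted p for 0 in edgeR. DESeq2 called 10 lower and 1 higher, beside 7.48% and 3.51% of all genes. The median log2 fold change was -0.51. Cd83, a marker of activated dendritic cells and macrophages, had 33.9, 7.53 and 29.3 CPM in the controls and 5.90, 3.39 and 3.46 CPM in the aPU.1KO mice (log2 fold change -2.48, SE 0.56). Bcl2a1b, a survival gene of the Bcl2 family, was at -2.42 (SE 0.59), and its reads may be shared with near-identical copies of the Bcl2a1 family. Cxcl10 and Ptx3 were among the higher genes, whose number was 0 without control mouse 1, control mouse 3 or aPU.1KO mouse 2, where 4.15%, 7.17% and 10.0% of all genes were higher. It was 1 without control mouse 2 or aPU.1KO mouse 1, beside 11.0% and 8.83% of all genes, and 8 without aPU.1KO mouse 3, beside 13.3%. The lower genes numbered 9 to 16 with any mouse left out, where 8.1% to 15.1% of all genes were lower. The macrophage marker sum was lower in the same mice as Tnip3, Nfkbid, Tnfrsf11a and Cd83, and its part in those values was not tested.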

How the data were processed

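The adipocyte fraction of each of 6 mice, 3 per genotype, gave 1 RNA library. The authors quantified reads with Salmon and deposited estimated counts summed to genes, which are whole numbers. Per the labels the build is GRCm38, and tool versions are not given in the sources used here. Symbols and coordinates came from GENCODE M21 (35102 of 35122 genes matched, the others holding 0.00188% of counts). Genes were filtered with filterByExpr, scaled by TMM and compared with the edgeR 4.0.16 quasi-likelihood test in R 4.3.3, with Benjamini-Hochberg adjustment over 13925 genes. DESeq2 1.42.0 and limma-voom (limma 3.58.1) were alternatives, beside other scaling factors, other filters, thinning of the deepest library and leaving out each mouse. The receptor ratio had 0.5 counts added to each gene and an exact permutation test in scipy 1.17.1. Intervals are 95% intervals from the standard error and the degrees of freedom of the fit. The pipeline was tested on simulated data. Levels per length used the union of annotated exons. Because low counts carry more counting error, values under about 10 CPM are the least precise.

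The members and lists were chosen with earlier results of these data known. From the lists of pathway, TNF family and NF-kB target genes, up to 4 genes each were named by rule. These had the largest absolute log2 fold change and an average log2 CPM of at least 1. Immediate early genes and cell type markers were not named by this rule. The division by macrophage markers, the order of the mice counted over all genes, and list counts with mice left out were added after the data were seen. Mice are numbered 1 to 3 in the order of their labels, and the p-values measure only the spread between these mice. Not every gene of the lists is reported here by name.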

Additional observations from a re-analysis of the deposited data

How the results depend on the processing

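The 33 genes called over the whole table became 5 with a filter of at least 10 counts in every library, 146 with no filter, 1833 with DESeq2, and 0 to 1193 when mice were left out singly, the lowest without control mouse 1 and the highest without control mouse 2. Genes at an unadjusted p under 0.05 numbered 1718 to 3922 with each mouse left out. Of the 10 pathway genes, 0 were called in edgeR with all mice, 2 with DESeq2 and 0 to 2 with each mouse left out, the 2 (Tnf and Tnfrsf1b) without control mouse 2. At an unadjusted p under 0.05 there were 2 to 5 of the 10 with each mouse left out. The 5, without aPU.1KO mouse 3, were Tnf and Tnfrsf1b, both lower, and Rela, Nfkbia and Tnfaip3, all higher. In that setting 14.2% of all genes were lower and 13.3% higher. Nfkb2 was not under this threshold without control mouse 1, control mouse 3, aPU.1KO mouse 2 or aPU.1KO mouse 3. Tnf and Tnfrsf1b kept their direction in all 15 other settings. Divided by the sum of the 14 macrophage markers, a choice made after the data were seen, they came to 0.117 and 0.0787. The log2 fold change of Relb changed sign with RLE factors (-0.0056), the count filter (-0.0148), no filter (-0.0104), DESeq2 (-0.00526), limma-voom (-0.0121) and thinning (-0.000915), and ran from -0.0952 to 0.153 with each mouse left out. Nfkbia ran from -0.100 to 1.05 and Tnfaip3 from -0.170 to 1.57, both below 0 only without aPU.1KO mouse 2. The causes were not tested. The receptor ratio stayed between -2.25 and -1.46 with each mouse left out, where the exact p cannot go below 0.2. The study's text describes its controls as littermates, but which of these mice share a litter is not known here. No paired analysis was possible because the labels share no replicate numbers between the groups.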

Other observations

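A few more listed targets of NF-kB are given here, named after their values were seen. Il1b, the cytokine interleukin-1 beta, had 13.6, 3.98 and 11.9 CPM in control mice 1, 2 and 3 and 2.29, 1.76 and 2.23 CPM in aPU.1KO mice 1, 2 and 3 (log2 fold change -2.24, SE 0.46, adjusted p = 0.0764 in edgeR). Vcam1, an adhesion molecule of activated endothelium, had 43.7, 19.0 and 50.4 CPM in the controls and 11.3, 8.50 and 12.9 CPM in the aPU.1KO mice (log2 fold change -1.79, SE 0.36). In both genes the groups did not overlap and control mouse 2 was the low control, as for Tnf. Ccnd1, which encodes the cell cycle protein cyclin D1, had 21.9 to 27.4 CPM in the controls and 9.10 to 14.7 CPM in the aPU.1KO mice, without a low control mouse 2 (log2 fold change -1.01, SE 0.19). Il6, the cytokine interleukin-6, had 8.02, 5.47 and 7.26 CPM in the controls and 4.83, 11.5 and 0.711 CPM in the aPU.1KO mice, so that aPU.1KO mouse 2 was highest and mice 1 and 3 lay below every control. Irf1, a transcription factor induced by interferon and NF-kB, lay between 66.7 and 67.3 CPM in all 3 controls and had 156.8, 410.5 and 43.9 CPM in the aPU.1KO mice.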
